A study of Mus musculus with 12 samples.

Results

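The genes that encode the machinery of oxidative phosphorylation were followed through RNA-Seq of primary mouse hepatocytes. They were taken by symbol: names starting with Nduf followed by a, b, c, s or v, Sdha to Sdhd, names starting with Uqcr, Cox followed by a digit from 4 to 8, or Atp5, without a -ps ending, together with Cyc1 and the 13 protein-coding genes of the mitochondrial genome. A gene was kept when its mean level reached 1 TPM (an abundance estimate corrected for transcript length and scaled to the same total in every library) in at least 1 group, and 105 of the 55450 genes in the files met this rule. Of these, 92 lie in the nuclear genome and 13 in the mitochondrial genome. By complex, 48 nuclear and 7 mitochondrial genes belonged to complex I, 4 and 0 to complex II, 9 and 1 to complex III, 14 and 3 to complex IV, and 17 and 2 to complex V. The symbol patterns also caught 9 assembly factors and 3 annotated pseudogenes (Ndufb4c, Ndufs6b and Cox6c2). Counts of nuclear members include these beside the 80 nuclear subunit genes, and the assembly factors are also described on their own. Another 9 genes were left out for their -ps ending, of which Ndufb1-ps reached 136 TPM in its highest group and the others at most 1.69 TPM, and 7 because they stayed below 1 TPM in every group. The members nearest the limit were Ndufs6b, at 1.07 TPM in its highest group, on the inner side and Cox6a2, at 0.74 TPM, on the outer side.

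The 12 libraries formed 4 groups of 3 biological replicates. WT hepatocytes had the genotype Cebpafl/fl, in which both Cebpa alleles are floxed and intact, and KO hepatocytes were labelled Cebpa{delta}Alb, a deletion of these alleles by Cre recombinase under the albumin promoter, which is active in hepatocytes. GFP hepatocytes received Ad-GFP, an adenovirus that expresses green fluorescent protein, and OE hepatocytes received Ad-m-Cebpa, an adenovirus that expresses mouse Cebpa. Cebpa encodes CEBPA, a leucine zipper transcription factor of adult hepatocytes. The labels give neither the age of the mice, nor the genotype of the hepatocytes that received virus, nor the time after infection, and do not say whether the replicates were separate mice or separate cultures, so p-values measure the spread between these libraries. For other assays the study describes virus treatment of WT hepatocytes and hepatocytes from young adult, chow-fed mice, without saying whether these libraries were made in the same way. The design addressed which genes change with hepatocyte CEBPA loss or gain, through KO against WT and OE against GFP. GFP against WT was also computed, but virus, culture, genotype and experiment cannot be told apart in it.

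Oxidative phosphorylation passes electrons from NADH and succinate along protein complexes of the inner mitochondrial membrane to oxygen, and the proton gradient that results drives ATP synthesis. Complex I oxidises NADH, complex II oxidises succinate, complex III passes electrons from ubiquinol to cytochrome c, complex IV reduces oxygen, and complex V is the ATP synthase. Hepatocytes are rich in mitochondria, and every complex except complex II is a mosaic of subunits from both genomes: the mitochondrial genome is transcribed from both of its strands into long precursors inside the organelle, whereas each nuclear gene has its own promoter.

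Total counts were 20160081 to 23304230 per library. Cebpa, the targeted gene, followed the labels: it was at 175, 123 and 165 TPM in the WT libraries, 0.540, 0.140 and 0.0900 in KO, 29.3, 31.2 and 33.7 in GFP and 9924, 10238 and 10733 in OE. CPM are counts scaled to library size by the TMM method. TMM was run within each pair of groups, so CPM of WT and KO are not on the same scale as CPM of GFP and OE. Hepatocyte markers (10 genes, among them Alb and Apoa1) summed to 115136 to 117443 CPM in WT and 128729 to 140062 in KO, and to 23314 to 23830 in GFP and 12180 to 12617 in OE. Macrophage markers (13 genes, such as Adgre1 and Cd68) summed to 3.86 to 23.8 CPM in WT and 15 to 47.1 CPM in KO, and to 118 to 133 CPM in GFP and 112 to 125 CPM in OE. Bile duct markers (7 genes) summed to 26.5 to 27.2 CPM in WT against 46.7 to 71.3 CPM in KO, and to 34.2 to 37.4 CPM in GFP against 57.5 to 64.5 CPM in OE. Stellate cell and fibroblast markers (10 genes) summed to 5.16 to 11.1 CPM in WT against 15.7 to 21.6 CPM in KO, and to 12.4 to 14.6 CPM in GFP against 44.0 to 44.2 CPM in OE. Red blood cell markers (6 genes) went from 73.1 to 112 CPM in WT to 36.4 to 46.5 CPM in KO, and were at 3.07 to 3.86 CPM in GFP against 6.91 to 8.13 CPM in OE. Endothelial markers overlapped between WT and KO and were at 49.9 to 52.8 CPM in GFP against 39.1 to 41.8 CPM in OE. Lymphocyte markers reached at most 2.77 CPM, and 4 of 8 (Cd3e, Cd8a, Ms4a1 and Nkg7) were at 0 in every library. The hepatocyte, bile duct, stellate and red blood cell sums therefore separated the groups without overlap in both KO against WT and OE against GFP, while the macrophage sums overlapped in both. Not all markers of a list moved alike. In KO against WT, edgeR called 0 of 10 hepatocyte, 1 of 2 bile duct, 1 of 4 stellate and 0 of 1 red blood cell markers tested. It also called 0 of 10 macrophage and 0 of 9 endothelial markers tested. In OE against GFP, 2 of 10 hepatocyte markers were higher and 8 lower. Of bile duct markers 4 of 7 were higher and 2 lower, and of stellate markers 3 of 6 were higher and 1 lower. The 1 red blood cell marker tested was higher in OE. Of 8 endothelial markers tested, 0 were higher and 4 lower. Only 2 of the 13 macrophage markers had enough counts to be tested in OE against GFP, with 1 higher and 1 lower. The macrophage sums in GFP and OE therefore rest on few genes. The part of these shifts in the results was not tested. In bulk RNA, fewer cells of a type and less RNA per cell cannot be told apart.

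Reads of the mitochondrial members are hard to place, and the sequences that show this are given before the values. The genes mt-Atp8 and mt-Atp6, which encode the membrane subunits of complex V made in the organelle, overlap on the mitochondrial chromosome (build mm10, chrM:7766-7969 and chrM:7927-8607, plus strand, GENCODE M21 annotation). The mt-Atp8 transcript of 204 bases is printed 5′ to 3′ with the 43 bases it shares with mt-Atp6 in capitals.
mt-Atp8: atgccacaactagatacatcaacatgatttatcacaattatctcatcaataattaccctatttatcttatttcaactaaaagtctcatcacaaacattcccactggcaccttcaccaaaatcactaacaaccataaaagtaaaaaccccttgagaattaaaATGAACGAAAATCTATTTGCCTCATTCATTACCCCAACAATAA
After the correction for fragment size the files gave this transcript an effective length of 43.1 bases on average, against 1638 bases for mt-Nd5. Because TPM divides by the effective length, mt-Atp8 took 32.4% to 40.0% of the summed mitochondrial TPM in every library. Shares of counts are therefore used below beside TPM.

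In addition, 7 mitochondrial members have an annotated near-identical copy in the nuclear genome. The copies lie side by side on chromosome 1 between positions 24611535 and 24616197 on the minus strand and are annotated as unprocessed pseudogenes, each at least 99% identical to its member over at least 80% of the shorter transcript. They are Gm29216 (a copy of part of mt-Co1), Gm28661 (mt-Co2), Gm10925 (mt-Atp6), Gm28437 (mt-Co3), Gm28438 (mt-Nd3), Gm10222 (mt-Nd4l) and Gm28439 (part of mt-Nd4). The copy of mt-Nd3 shows how little separates the pair: over 345 aligned bases, counted from 1 at the 5′ end of mt-Nd3, the only difference was T3C, where the mitochondrial base is given before the position and the base of the copy after it. The start of both sequences is shown with the differing base in capitals.
mt-Nd3 (chrM:9459-9481, plus strand): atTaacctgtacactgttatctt
Gm28438 (chr1:24613097-24613119, minus strand): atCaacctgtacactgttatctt
A read that does not cover this base cannot be assigned by its sequence, and the division of such reads between member and copy was an estimate.

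The counts assigned to the copies were large. For mt-Co2, the copy Gm28661 held 73.4, 75.6 and 60.3% of the summed counts of the pair in the WT libraries and 68.5, 80.2 and 71.6% in the OE libraries. For mt-Atp6, the copy Gm10925 held 76.0, 79.2 and 66.7% in WT and 72.2, 82.9 and 77.5% in OE. For mt-Co3, the copy Gm28437 held 49.8, 60.7 and 39.1% in WT, 58.9, 63.4 and 56.1% in GFP and 28.3, 61.9 and 56.8% in OE. The division thus differed between replicates of the same group, most of all for mt-Co3 in OE, where its own share of the library's counts varied by 38.6% (coefficient of variation, n = 3) and the sum of member and copy by 4.37%. For mt-Nd4 and mt-Co1 the copies held at most 0.954% and 12.2% of the pair in any library. Values of the mitochondrial members most affected are therefore given with and without the counts of their copies. Of the nuclear members, 11 also have a copy of at least 99% identity, and their values are given by their own counts alone.

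**Figure D1:**
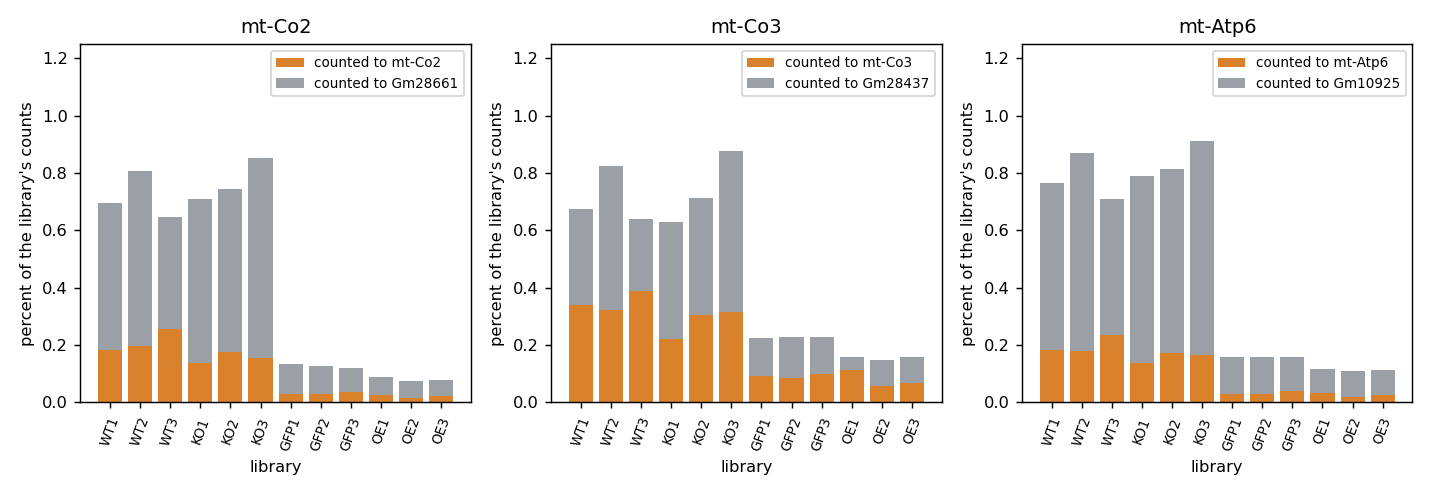
Counts assigned to mt-Co2, mt-Co3 and mt-Atp6 (orange) and to their chromosome 1 copies (grey) in each of the 12 libraries, as a percent of the library's counts. The total height differs little between replicates of GFP and of OE, while the boundary between orange and grey moves; in OE the Gm28437 share of the mt-Co3 pair runs from 28.3% to 61.9%.

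The mitochondrial members held more counts than the nuclear members in WT and KO hepatocytes, and the gap narrowed in GFP and OE. The 13 mitochondrial members held 5.97, 6.75 and 5.84% of all counts in the WT libraries and 5.86, 6.18 and 6.73% in KO, against 1.63, 1.51 and 1.57% in GFP and 0.954, 0.809 and 0.843% in OE. The 92 nuclear members together held 1.02, 1.00 and 0.915% in WT, 0.906, 0.978 and 1.10% in KO, 0.972, 0.984 and 0.987% in GFP and 0.768, 0.760 and 0.752% in OE. The mitochondrial sum thus separated both virus-treated groups from WT and KO with no overlap, and OE from GFP as well, whereas the nuclear sum overlapped among WT, KO and GFP and was lower in OE.

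With the copies counted, the ratio of mitochondrial to nuclear counts was 8.02 ± 0.682 (SD, n = 3) in WT, 8.33 ± 0.176 in KO, 2.05 ± 0.0829 in GFP and 1.5 ± 0.0561 in OE. WT and KO differed by less than the spread of the WT libraries. The WT ratio was 3.91 times that of GFP, and the GFP ratio was 1.37 times that of OE. Without the copies these factors were 3.95 and 1.40, and on the TPM scale they were 4.72 and 1.22, so the direction did not rest on the unit. A ratio within a library does not depend on how libraries are scaled to each other, but no test was run on these sums. The 2 mitochondrial ribosomal RNAs, which should be depleted from poly(A) libraries, held 0.0667% to 0.169% of the counts and are not members.

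**Figure D2:**
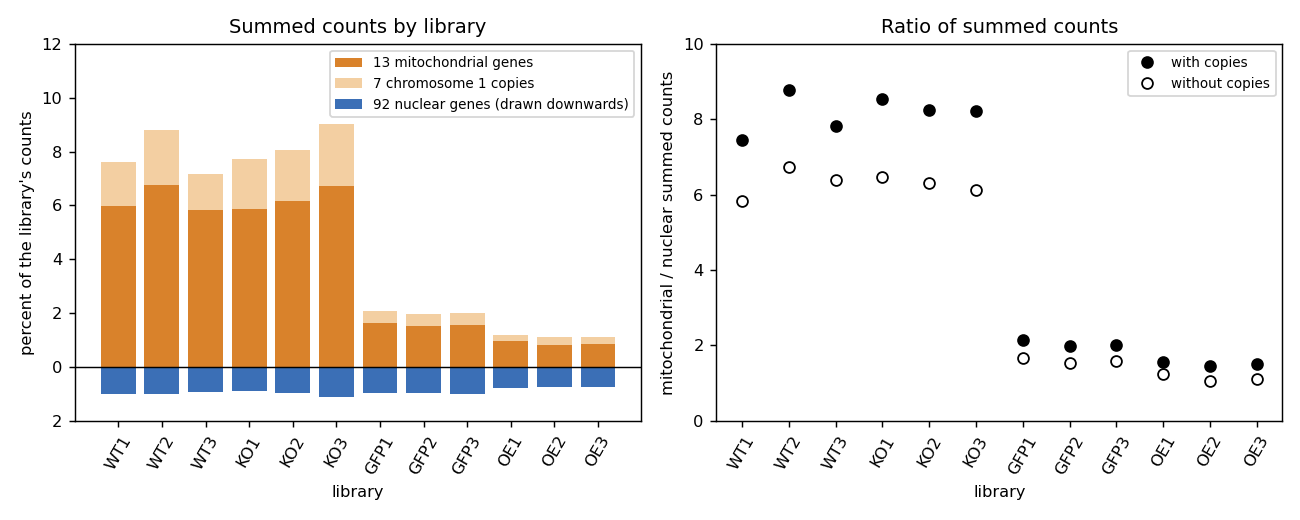
Summed counts of the mitochondrial members (orange), their 7 chromosome 1 copies (light orange) and the nuclear members (blue, drawn downwards from 0), as a percent of each library's counts, and the ratio of mitochondrial to nuclear sums with (filled) and without (open) the copies. The ratio lies between 7.45 and 8.77 in WT and KO, between 1.99 and 2.15 in GFP and between 1.45 and 1.56 in OE when copies are counted.

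By complex, the nuclear genes of complexes I and V carried the most message. Summed nuclear TPM in WT was 6163 ± 382 (SD, n = 3) for complex I, 769 ± 24.4 for complex II, 2833 ± 163 for complex III, 4111 ± 225 for complex IV and 5903 ± 333 for complex V. The nuclear member of highest mean TPM over the 12 libraries was Ndufa4 in complex I, Sdha in complex II, Uqcrq in complex III, Cox4i1 in complex IV and Atp5b in complex V. Atp5b, which encodes the catalytic beta subunit of the ATP synthase, was at 1041 ± 34.9 TPM in WT and 1108 ± 34.1 TPM in OE. Its mean was 1189 TPM in KO and 1375 TPM in GFP, the control of OE. Ndufa4, counted here by its symbol although its protein is now assigned to complex IV, was at 669 ± 52.1 TPM in WT and 672 ± 11.9 TPM in OE. Its mean was 628 TPM in KO and 674 TPM in GFP. On the TPM scale the GFP sums lay above all WT libraries for complexes I, III, IV and V, with complex IV at 5863 ± 49.1 TPM, and below all WT libraries for complex II at 599 ± 8.48 TPM. By share of counts this held for complexes IV and II alone: GFP and WT overlapped for complexes I and V, and GFP lay below WT for complex III, at 0.112 ± 0.000918% against 0.125 ± 0.00738%. In OE, the nuclear sums of complexes I, II, IV and V lay below those of GFP in all libraries by TPM and by share of counts, and that of complex III lay above by both, at 3514 ± 32.1 TPM against 3132 ± 38.6 TPM.

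No member passed the test between KO and WT hepatocytes. In KO against WT, edgeR's quasi-likelihood test with Benjamini-Hochberg adjustment called 1.71% of all genes tested (203 of 11846) and 0 of the 89 nuclear and 0 of the 13 mitochondrial members tested. DESeq2 and limma also called 0. At an unadjusted p under 0.05 edgeR counted 1 nuclear and 0 mitochondrial members, DESeq2 5 and 1, and limma on log2(TPM + 1) 1 and 1, against 1644 of all genes by edgeR. The median log2 fold change was -0.01 over the nuclear and 0.03 over the mitochondrial members, against 0.01 over all genes tested, and log2 fold changes ran from -0.68 to 0.25. Of the 102 members tested, 96 had a log2 fold change between -0.3 and 0.3, and the 95% interval stayed within 2-fold in either direction for 100. The exceptions were Ndufa4l2 (-1.55 to 0.22) and the pseudogene Cox6c2 (-2.32 to 0.97), both of low level. The groups did not overlap for 13 of the 89 nuclear and 2 of the 13 mitochondrial members, against 20.1% of all genes tested.

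The nuclear member with the lowest p in each complex shows the size of these differences. For Ndufb3, an accessory subunit of complex I, CPM values were 36.1, 39.9 and 28.2 in WT and 21.1, 24.7 and 26.5 in KO, and the log2 fold change was -0.53 ± 0.15 (SE), adjusted p = 0.19. All KO libraries lay below all WT libraries, yet the change did not pass, and only a fit of all 12 libraries put its adjusted p under 0.05. In the other complexes the values were 0.20 ± 0.10 for Sdha (the flavoprotein of complex II), 0.21 ± 0.09 for Uqcrc1 (a core protein of complex III), 0.09 ± 0.09 for Cox8a (a small subunit of complex IV) and 0.22 ± 0.10 for Atp5a1 (the alpha subunit of the ATP synthase), with adjusted p of 0.38 to 0.68. The KO libraries differed among themselves: 71 of the 89 nuclear members were lowest in KO1 and 59 were highest in KO3, while 32.7% of all genes tested were lowest in KO1, and the nuclear share of counts ran from 0.906% in KO1 to 1.10% in KO3.

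Among the mitochondrial members in KO, the sign of 3 values turned when the copies were counted. The lowest log2 fold changes by the members' own counts were -0.39 ± 0.18 for mt-Co2, -0.36 ± 0.19 for mt-Nd6, -0.28 ± 0.16 for mt-Co3 and -0.28 ± 0.16 for mt-Atp6. mt-Co2 and mt-Co3 encode core subunits of complex IV and mt-Atp6 a subunit of the proton channel of complex V. With the copies added, mt-Co2 came to 0.15 ± 0.14 (SE), adjusted p = 0.66, mt-Co3 to 0.10 ± 0.16 (SE), adjusted p = 0.81 and mt-Atp6 to 0.15 ± 0.13 (SE), adjusted p = 0.65, so that each turned from below to above 0. None passed in either count. mt-Atp8, which has no annotated copy, was at 0.25 ± 0.13.

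OE hepatocytes held less message of most members than GFP hepatocytes. In OE against GFP, edgeR called 42.7% of the 14889 genes tested lower and 43.9% higher. Of the 90 nuclear members tested, 76 were lower and 8 higher, and of the 13 mitochondrial members 12 were lower and 0 higher. The median log2 fold change was -0.63 over the nuclear and -0.86 over the mitochondrial members, against 0.01 over all genes tested. By over 2-fold fell 11 nuclear and 5 mitochondrial members. Falls of this size were common among short genes. In the bins of all genes tested with median effective lengths of 367 and 654 bases, the lower quartile of log2 fold change was -0.96 and -1.05. The groups did not overlap for 84 of the 90 nuclear and 11 of the 13 mitochondrial members, against 87.0% of all genes tested. The nuclear members that did not pass were Ndufa4l2, Ndufaf2, Ndufaf3, Ndufb3, Ndufb4 and Atp5c1. Ndufb4 is 100% identical over 390 bases to the pseudogene Ndufb4c, which was counted as a separate member and passed as lower. Mean counts were 254 for Ndufb4 and 559 for Ndufb4c in GFP, and 263 and 557 in OE. The division of reads within this pair was an estimate, so their differing calls are not separate results. With libraries scaled to their totals the median of all genes rose to 0.15 and the nuclear counts were 68 lower and 9 higher; limma on log2(TPM + 1), where the median of all genes was 0.29, gave 60 lower and 21 higher.

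Transcript length moved with this result. Members are short: the median effective length was 537 bases for the nuclear members against 2177 bases for all genes tested. Over all 684 genes tested with an effective length up to 500 bases the median log2 fold change was -0.49, and over the 8112 genes longer than 2000 bases it was 0.22. When a lowess trend of log2 fold change on length was subtracted, the nuclear median went from -0.63 to -0.19, with 60 of 90 members still below 0, and the mitochondrial median from -0.86 to -0.54, with 11 of 13 below 0. In KO against WT the trend was small, with medians of -0.10 for genes up to 500 bases and 0.03 for those over 2000 bases. The part of length in the result was not tested.

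**Figure D3:**
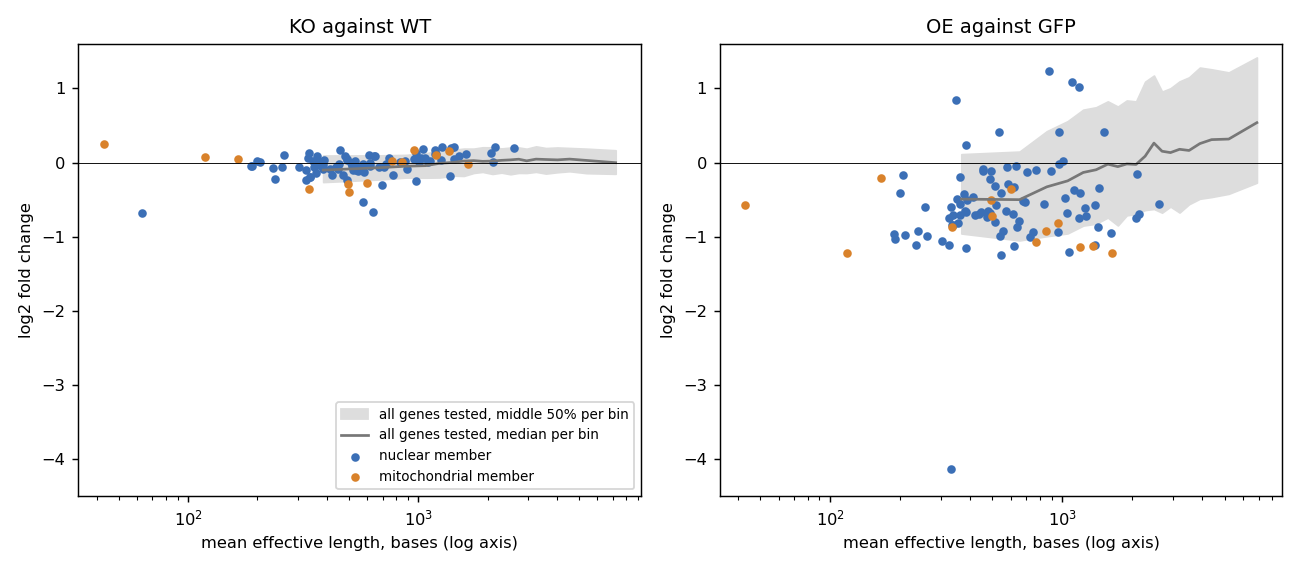
Log2 fold change of the nuclear (blue) and mitochondrial (orange) members against their mean effective length in bases (log axis) in KO against WT and OE against GFP. The grey line is the median and the grey band the middle 50% of all genes tested in 20 bins of length; in OE against GFP the line climbs with length, and 60 of 90 nuclear and 11 of 13 mitochondrial points lie under the lowess trend of all genes.

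Complex by complex, the counts of nuclear members lower and higher in OE were 39 and 3 of 47 tested in complex I, 4 and 0 of 4 in complex II, 6 and 3 of 9 in complex III, 13 and 0 of 13 in complex IV, and 14 and 2 of 17 in complex V. Median log2 fold changes were -0.57, -0.63, -0.35, -0.75 and -0.69. Among the nuclear members higher in OE, Ndufaf5 and Ndufaf7 of complex I and Atp5s of complex V are assembly factors. The mitochondrial members had medians of -1.07 for the 7 of complex I, -0.72 for the 3 of complex IV and -0.54 for the 2 of complex V, and mt-Cytb stood at -0.82. The nuclear and mitochondrial values were further apart in complexes I and III than in complexes IV and V, and no test was made of these medians.

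**Figure D4:**
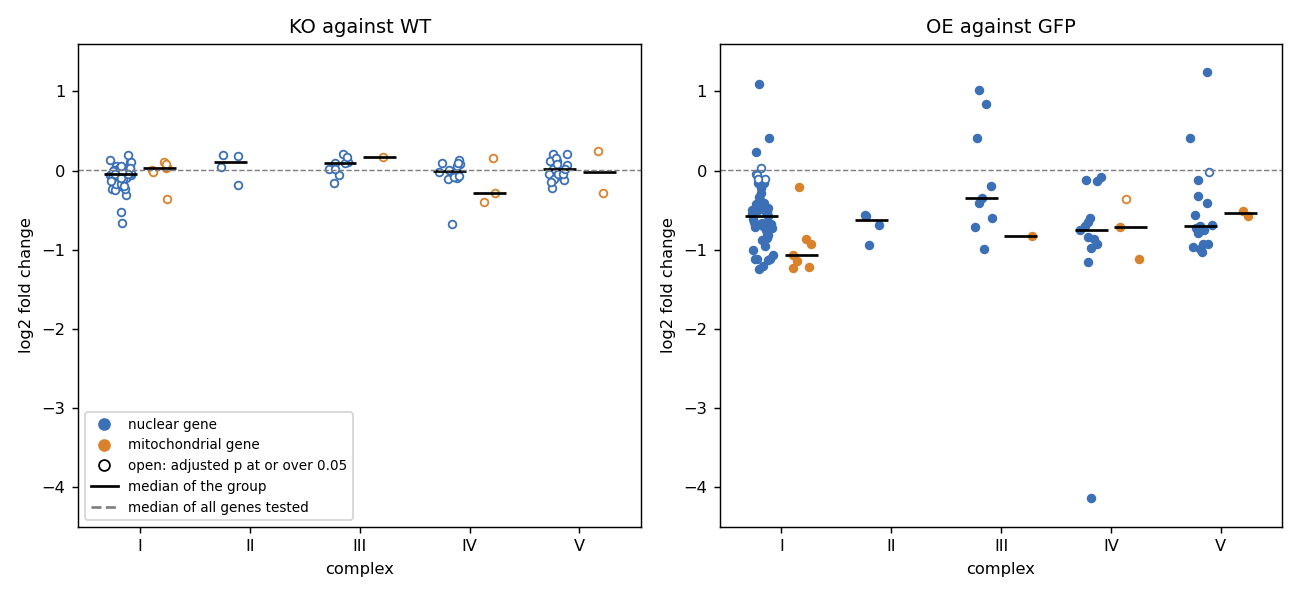
Log2 fold change of each member in KO against WT (left) and OE against GFP (right), by complex and genome. Filled points passed an adjusted p of 0.05, black bars are medians of the group and the dashed line is the median of all genes tested. No point is filled on the left; on the right the points above 0 that are filled are 8 nuclear genes.

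The nuclear complex I members of lowest p had differing roles, and all fell. Ndufv1, which carries the flavin that accepts electrons from NADH, was at 136, 143 and 135 CPM in GFP and 61.9, 65.2 and 63.8 CPM in OE, a log2 change of -1.12 ± 0.03 (SE), adjusted p = 4.0e-13. Ndufa13, an accessory subunit also known as GRIM-19, was at 101, 97.9 and 103 CPM in GFP and 43.7, 44.3 and 42.8 CPM in OE, with -1.2 ± 0.04 (SE), adjusted p = 2.9e-13. Ndufa10, another accessory subunit, changed by -0.95 ± 0.03 (SE), adjusted p = 1.1e-12. All OE libraries lay below all GFP libraries for the 3 genes, which were the complex I members of lowest p and kept most of their change with the length trend removed (-0.99, -0.98 and -0.87). Ndufb10, a membrane arm subunit chosen after its value was seen, had the lowest log2 fold change of the nuclear complex I members, -1.24 ± 0.06 (SE), adjusted p = 3.7e-11. Ndufa4, the most abundant, fell by 0.42 on the log2 scale from 181, 179 and 180.5 to 136, 134 and 134 CPM, but came to 0.11 with the length trend removed. By limma on log2(TPM + 1) Ndufa4 was at -0.0049, adjusted p = 0.85, and did not pass.

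Complex II has nuclear subunits alone, and all 4 genes fell. Sdhb, the iron-sulfur subunit, went from 92.3, 93.3 and 91.3 CPM in GFP to 49.0, 49.6 and 45.9 CPM in OE, with a log2 change of -0.94 ± 0.04 (SE), adjusted p = 9.2e-12. Sdha, the flavoprotein that oxidises succinate, changed by -0.56 ± 0.03 (SE), adjusted p = 6.3e-11, and Sdhd and Sdhc, the membrane anchors, by -0.68 ± 0.04 and -0.57 ± 0.06 (SE). The OE and GFP libraries overlapped in none of them. With effective lengths from 955 to 2605 bases these are among the longer members, and with the length trend removed the values were -0.66, -0.66, -0.45 and -0.46.

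Complex III was divided. Uqcrfs1 encodes the Rieske iron-sulfur protein and was at 133, 129.6 and 128 CPM in GFP against 269, 258 and 265 CPM in OE, a log2 change of 1.02 ± 0.03 (SE), adjusted p = 2.1e-13. Uqcrb, a subunit near the ubiquinone site, was at 87.5, 79.9 and 86.4 CPM in GFP and 155, 149 and 151 CPM in OE, with 0.84 ± 0.04 (SE), adjusted p = 1.3e-11. Uqcrc2, a core protein, changed by 0.41 ± 0.03 (SE), adjusted p = 2.5e-09. With the length trend removed the values of these 3 genes were 1.2, 1.39 and 0.51. Against them, Uqcr11, a small subunit, went from 88.9, 89.9 and 85.0 to 46.5, 43.7 and 42.9 CPM (-0.99 ± 0.04 (SE), adjusted p = 1.3e-11), and Uqcrq, the most abundant nuclear member of the complex, changed by -0.71 ± 0.03 (SE), adjusted p = 2.6e-11. The mitochondrial subunit mt-Cytb, cytochrome b, went from 949, 880.2 and 915 CPM to 532, 519 and 503 CPM (-0.82 ± 0.04 (SE), adjusted p = 1.8e-11). By CPM the OE libraries thus lay above GFP for 3 subunit genes of this complex and below GFP for 7. On the TPM scale Uqcrh, the hinge subunit, lay above GFP as well, at 443, 466 and 461 TPM in GFP and 488, 492 and 516 TPM in OE.

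In complex IV all 13 nuclear members tested passed as lower by TMM scaling, and 10 of them by library totals. Cox6a1, the form of subunit 6a found in liver, was at 201, 205 and 209.8 CPM in GFP and 92, 96.2 and 87.8 CPM in OE (-1.16 ± 0.03 (SE), adjusted p = 2.8e-13), and Cox6a2, the muscle form, stayed under the limit of 1 TPM. Cox4i1 changed by -0.92 ± 0.04 (SE), adjusted p = 4.3e-12 and Cox5b by -0.87 ± 0.03 (SE), adjusted p = 2.2e-12, both nuclear subunits that surround the catalytic core. Cox4i2, the paralogue of Cox4i1, and Cox8b and Cox8c, the paralogues of Cox8a, did not reach 1 TPM in any group, while Cox8a itself changed by -0.71 ± 0.04 (SE), adjusted p = 9.1e-10. For subunit 7a, Cox7a2 was at 318 ± 7.24 TPM and the muscle form Cox7a1 at 6.49 ± 0.989 TPM in GFP. Cox7a1 changed by -0.98 ± 0.34 (SE), adjusted p = 0.016, a call that was lost without OE replicate 1 (-0.69) or without GFP replicate 1 (-0.86). The call on Cox7a1 was also lost by DESeq2 (-0.95, adjusted p = 0.12) and by limma on log2(TPM + 0.1) (-0.70, adjusted p = 0.052). In the edgeR fit of all 12 libraries it was lost as well (-0.96, adjusted p = 0.10). Cox7a2 and Cox7a2l, the latter a factor in supercomplex assembly, had log2 fold changes of -0.09 ± 0.03 and -0.12 ± 0.03, which passed but turned above 0 with libraries scaled to their totals and on the TPM scale, and the call on Cox7a2 was also lost without OE replicate 2 (-0.07) or OE replicate 3 (-0.06). Neither Cox7a2 nor Cox7a2l passed by DESeq2 or in the fit of all 12 libraries. Cox7a2 also did not pass with no filter on low counts or with a stricter filter.

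Cox6b2, the testis form of subunit 6b, was high in GFP. It was at 0.380, 0.310 and 0.770 TPM in WT, 0.420, 0.330 and 0.640 TPM in KO, 25.5, 21.4 and 25.8 TPM in GFP and 2.04, 1.46 and 1.5 TPM in OE. The GFP libraries lay above all others and the OE libraries lay above WT and KO. In OE against GFP the log2 fold change was -4.14 ± 0.24 (SE), adjusted p = 6.1e-10, the largest of all members tested, and in GFP against WT it was 3.89 ± 0.32 (SE), adjusted p = 8.3e-06. Its paralogue Cox6b1, the form used in most tissues, was at 748 ± 25.4 TPM in GFP and 526 ± 27.5 TPM in OE, with a log2 change of -0.84 ± 0.03 (SE), adjusted p = 7.8e-12.

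In complex V, Atp5d (the delta subunit of the ATP synthase) went from 219, 226 and 219 CPM in GFP to 119.8, 114 and 114 CPM in OE, with -0.93 ± 0.03 (SE), adjusted p = 7.5e-13. Atp5o and Atp5f1, parts of the stalk that holds the catalytic head in place, changed by -0.79 ± 0.03 (SE), adjusted p = 1.6e-12 and by -0.74 ± 0.03 (SE), adjusted p = 1.9e-11, and Atp5b by -0.72 ± 0.03 (SE), adjusted p = 2.1e-11. The OE libraries lay below the GFP libraries for all of these. The genes Atp5g1, Atp5g2 and Atp5g3 encode precursors of the same mature c subunit of the membrane ring, and they did not move together. Atp5g3, the most abundant of them, was at 305, 301 and 305 CPM in GFP and 414, 398 and 403 CPM in OE (0.41 ± 0.03 (SE), adjusted p = 3.5e-09), while Atp5g2 changed by -0.41 ± 0.04 (SE). Atp5g1 was at -0.11 ± 0.04 (SE), which passed but turned to 0.03 by library totals and was lost without OE replicate 2 (-0.07), OE replicate 3 (-0.10) or GFP replicate 3 (-0.09). The call on Atp5g1 was also lost by DESeq2 and in the fit of all 12 libraries. Summed over the 3 genes, mean TPM was 1326 in GFP and 1905 in OE. The size of this rise depends on the unit. By limma on log2(TPM + 1), Atp5g1 was at 0.17 and Atp5g2 at -0.09, both above their values by CPM.

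The mitochondrial members fell over a range of sizes. mt-Nd5, a core membrane subunit of complex I, was at 1749.7, 1606 and 1678 CPM in GFP and 736, 708 and 709 CPM in OE, a log2 change of -1.23 ± 0.04 (SE), adjusted p = 3.2e-13. mt-Nd4l, mt-Nd4, mt-Nd1 and mt-Nd2, further core subunits, changed by -1.22, -1.14, -1.07 and -0.93, and mt-Co1, the catalytic subunit of complex IV, by -1.12 ± 0.04 (SE), adjusted p = 5.2e-12. The OE libraries lay below the GFP libraries for each of these. mt-Nd6, the sole member read from the other strand of the mitochondrial genome, was at 7.25, 6.25 and 6.47 CPM in GFP and 3.84, 3.95 and 3.15 CPM in OE, with -0.86 ± 0.13 (SE), adjusted p = 2.7e-05, a value within the range of the other mitochondrial members. mt-Atp8 changed by -0.57 ± 0.04 (SE), adjusted p = 1.4e-09, and mt-Nd3 by -0.21 ± 0.05 (SE), adjusted p = 0.0018, which came to 0.36 with the length trend removed and to 0.10 by limma on log2(TPM + 1). The call on mt-Nd3 was also lost by library totals (-0.071, adjusted p = 0.21 in edgeR) and in the fit of all 12 libraries (-0.20, adjusted p = 0.24).

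The 3 members with the largest copy shares had smaller standard errors when the copies were added. mt-Co3 was at 978, 868 and 1052 CPM in GFP and 1089.6, 534 and 645 CPM in OE, the groups overlapped, and its log2 fold change of -0.35 ± 0.18 (SE), adjusted p = 0.08, did not pass. With Gm28437 added the change was -0.69 ± 0.04 (SE), adjusted p = 1.6e-10. For mt-Co2 the value went from -0.72 ± 0.16 to -0.80 ± 0.06 (SE), adjusted p = 3.9e-09, and for mt-Atp6 from -0.51 ± 0.15 to -0.62 ± 0.04 (SE), adjusted p = 3.3e-10. Without the copies, mt-Co2 and mt-Atp6 did not pass limma on log2(TPM + 1) (-0.44 and -0.21), and mt-Atp6 did not pass DESeq2 (-0.48). With copies added, all 13 mitochondrial members were lower in OE, by log2 fold changes from -1.22 to -0.19. Without the OE1 library, which held the most mt-Co3 and the smallest share of its copy, the log2 fold change of mt-Co3 was -0.70 and passed. With OE1 kept, mt-Co3 also passed in edgeR with a replicate block (-0.42, adjusted p = 0.0056). With no filter on low counts, mt-Co3 came to -0.34, adjusted p = 2.9e-24 in edgeR. That fit used the same libraries, in which GFP and OE overlapped, so its adjusted p is not taken as support for a fall of mt-Co3. The cause of this drop in adjusted p was not tested.

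Of the 9 assembly factors, proteins that build the complexes but do not stay in them, 3 rose and 4 fell in OE, or 3 and 2 by library totals. Ndufaf7, a methyltransferase that acts on a core subunit of complex I, was at 15.1, 14.1 and 14.4 CPM in GFP and 33.8, 28.5 and 30.5 CPM in OE (1.09 ± 0.07 (SE), adjusted p = 2.9e-09). Ndufaf5, which modifies another core subunit, changed by 0.42 ± 0.11 (SE), adjusted p = 0.0033. Atp5s, a factor linked to the ATP synthase, was at 3.08, 3.76 and 4.31 CPM in GFP and 7.35, 10.6 and 8.51 CPM in OE (1.24 ± 0.16 (SE), adjusted p = 3.8e-06), with no overlap between the groups in any of the 3. The other member that rose was Ndufa6, an accessory subunit of complex I, at 0.23 ± 0.04 (SE), adjusted p = 1.0e-04. These genes, with Uqcrfs1, Uqcrb, Uqcrc2 and Atp5g3, complete the 8 that rose, and all but the genes named by the lowest p were chosen after their values were seen.

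**Figure D5:**
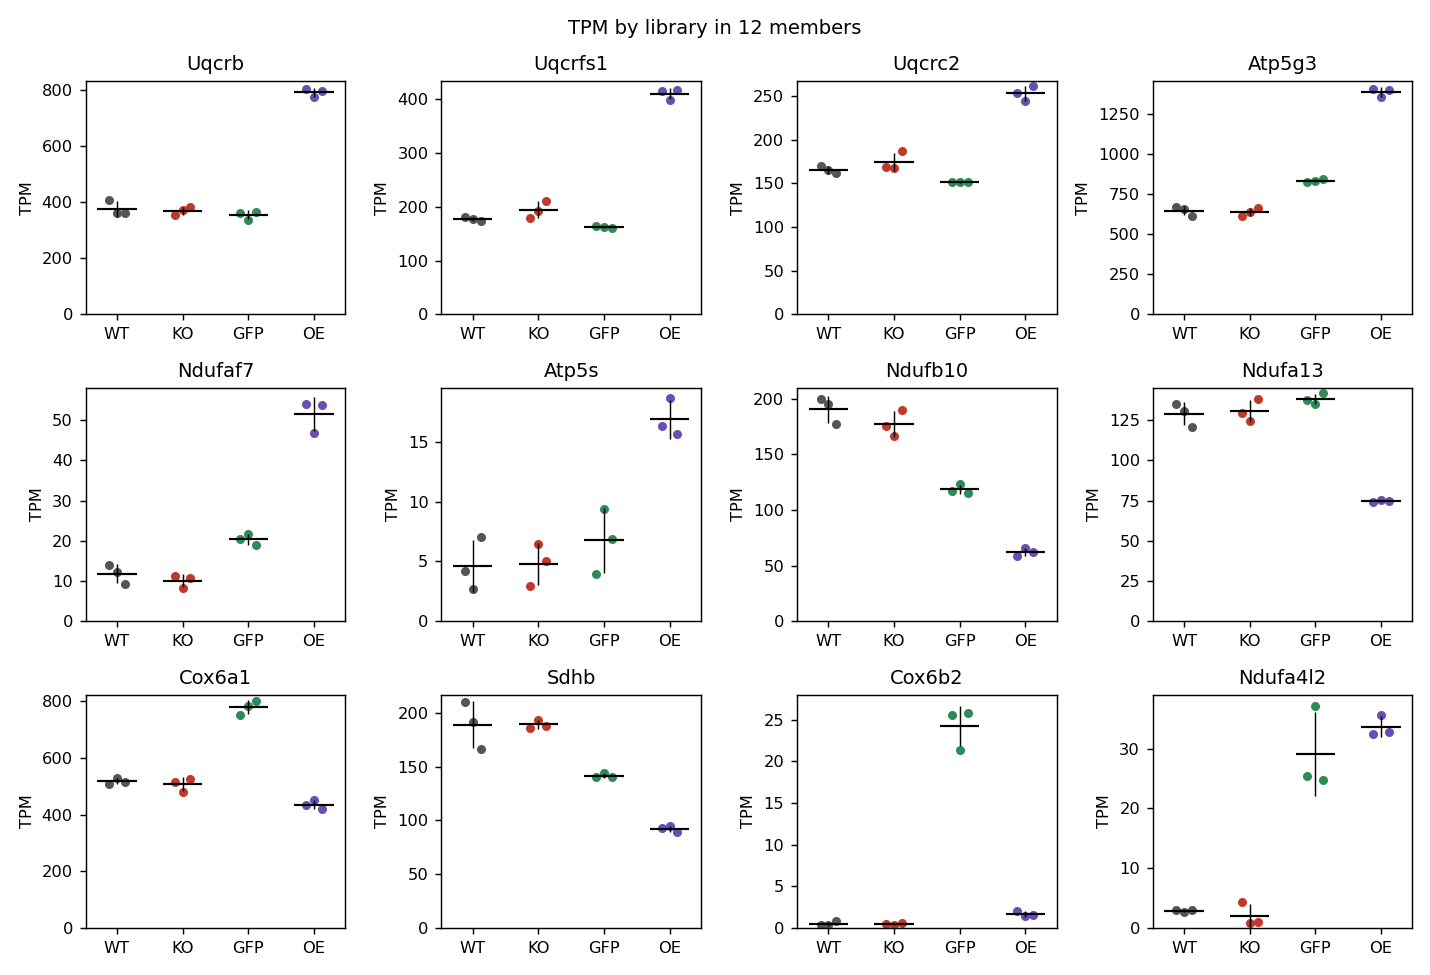
TPM of 12 members in each library, with the mean (bar) and SD (vertical line) of each group of 3; the vertical axes start at 0 and differ between panels. Uqcrb, Uqcrfs1, Uqcrc2, Atp5g3, Ndufaf7 and Atp5s are highest in OE, Ndufb10, Ndufa13, Cox6a1 and Sdhb are lowest in OE, and Cox6b2 is high in GFP alone.

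The promoters of members that rose and fell were searched for short motifs, because nuclear subunit genes are known targets of NRF1, GABPA and YY1. The RefSeq promoter table (build GRCm38.p6, 250 bases before to 50 bases after each start) matched 72 of the 92 nuclear members, with 77 promoters. The motifs searched on both strands were GCGCA and GCGC with any base between them for NRF1, CCGGAAG for GABPA and other ETS factors, AANATGGCG for YY1, CCAAT for the CCAAT box and TTNCNNAA for C/EBP, and the last can overlap a CCAAT box. NRF1 letters were found in 26% of the members' promoters against 4.6% of all 32851 promoters in the table, GABPA letters in 23.4% against 8.86%, and YY1 letters in 14.3% against 2.38%. CCAAT was found in 42.9% against 37.4% and the C/EBP letters in 42.9% against 40.7%. Median GC content was 58.3% in the members' promoters and 52.7% in all.

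The split by direction in OE rests on few promoters. Of the 5 promoters of members that rose, 3 held the NRF1 letters, 0 the GABPA, 0 the YY1 and 3 the C/EBP letters. Of the 66 promoters of members that fell, 15 held NRF1, 18 GABPA, 11 YY1 and 29 C/EBP letters. To show what these stretches look like, the 150 bases before the start are printed 5′ to 3′ for 2 subunit genes that rose and 2 that fell, all on the minus strand, with every match to these motifs in capitals.
Uqcrfs1, rose (chr13:30545317-30545466): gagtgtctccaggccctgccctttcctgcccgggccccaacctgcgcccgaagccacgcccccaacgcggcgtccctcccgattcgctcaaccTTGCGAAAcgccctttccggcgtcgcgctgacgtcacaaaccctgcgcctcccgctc
Atp5g3, rose (chr2:73911327-73911476): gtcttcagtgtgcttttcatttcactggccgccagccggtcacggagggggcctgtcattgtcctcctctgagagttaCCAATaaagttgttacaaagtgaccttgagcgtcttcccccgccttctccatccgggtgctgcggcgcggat
Ndufb10, fell (chr17:24724424-24724573): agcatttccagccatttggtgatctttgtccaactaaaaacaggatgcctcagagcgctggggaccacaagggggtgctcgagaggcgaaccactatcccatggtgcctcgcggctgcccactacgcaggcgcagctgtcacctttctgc
Cox6a1, fell (chr5:115348959-115349108): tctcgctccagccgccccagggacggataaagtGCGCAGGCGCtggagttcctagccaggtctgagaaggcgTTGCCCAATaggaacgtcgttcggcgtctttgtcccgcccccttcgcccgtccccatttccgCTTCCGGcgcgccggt
In the printed stretch Uqcrfs1 held a C/EBP match (TTGCGAAA), Atp5g3 a CCAAT box, and Ndufb10 no match. Cox6a1 held matches to NRF1 and ETS in this stretch and a CCAAT box that overlaps a C/EBP match. Outside the printed bases, the searched window held an NRF1 match in Atp5g3 (GCGCTTGCGC, positions 12 to 21 from the start). Cox6a1 held another NRF1 match there (GCGCATGCGC, positions -162 to -153). A match is a description of letters and not a binding site.

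Lists of other mitochondrial genes are read against the 42.7% of all genes called lower and 43.9% called higher in OE. Of 14 electron carrier genes, 11 fell and 2 rose, with a median log2 fold change of -0.59 (-0.43 with the length trend removed), and Cycs, which encodes cytochrome c, changed by -1.02 ± 0.03 (SE), adjusted p = 3.9e-13. Among 14 genes of the tricarboxylic acid cycle 8 fell and 4 rose (median -0.26, or -0.12 with the trend removed), and among 39 further assembly factors tested 20 fell and 8 rose (median -0.19, or 0.0024). Of 78 mitochondrial ribosomal protein genes 46 fell and 20 rose (median -0.24, or 0.11 with the length trend removed). Of 24 genes for transcription and replication of the mitochondrial genome 9 fell and 11 rose (median 0.02, or 0.11), shares near those of all genes. In that list Tfam, which packages and activates mitochondrial DNA, changed by -0.54 ± 0.04 (SE), adjusted p = 6.4e-09, Polrmt, the mitochondrial RNA polymerase, by -0.27 ± 0.05 (SE), adjusted p = 1.1e-04, and Polg, the DNA polymerase, by -0.96 ± 0.03 (SE), adjusted p = 1.6e-12. Against these, Mterf2 and Mterf3, of the mitochondrial termination factor family, changed by 2.40 ± 0.12 (SE), adjusted p = 1.3e-10 and by 1.88 ± 0.05 (SE), adjusted p = 7.3e-14, and Mtpap, the mitochondrial poly(A) polymerase, by 1.96 ± 0.04 (SE), adjusted p = 1.2e-14. The genes named from this list were chosen after their values were seen. In KO against WT, 0 genes of these lists passed edgeR, with 1 to 4 genes a list at an unadjusted p under 0.05.

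Regulators of nuclear subunit genes changed in both directions in OE, 7 of 10 higher and 1 lower. Esrra, a nuclear receptor that drives subunit genes, was at 80.5 ± 1.66 CPM in GFP and 23.7 ± 0.983 CPM in OE (SD, n = 3), a log2 change of -1.76 ± 0.05 (SE), adjusted p = 5.3e-14. Ppargc1a, a coactivator of mitochondrial genes, was at 8.68 ± 1.26 CPM in GFP and 26.7 ± 0.268 CPM in OE, with 1.62 ± 0.08 (SE), adjusted p = 1.4e-10. Nrip1, a corepressor of the same genes, was at 48.9 ± 1.52 CPM in GFP and 837 ± 12.6 CPM in OE, with 4.10 ± 0.03 (SE), adjusted p = 1.7e-18. Nrf1 changed by 0.30 ± 0.05 (SE), adjusted p = 5.0e-05, while Gabpa (-0.07 ± 0.04 (SE), adjusted p = 0.077) and Yy1 (-0.04 ± 0.03 (SE), adjusted p = 0.23) did not pass. Esrra thus fell while Ppargc1a and Nrip1 rose, each by more than the spread of its libraries.

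All mitochondrial members were lower in GFP than in WT hepatocytes. In GFP against WT, edgeR called 45.0% of 13760 genes higher and 38.4% lower, and all 13 mitochondrial members lower, with log2 fold changes from -4.5 ± 0.11 (SE), adjusted p = 9.6e-09 for mt-Cytb to -2.59 ± 0.15 (SE), adjusted p = 9.3e-07 for mt-Nd1. With libraries scaled to their totals, which moved the median of all genes from 0.13 to 1.37, the mitochondrial members still ran from -3.26 to -1.35 and all 13 passed. The nuclear members had no direction that held: 84 were lower and 3 higher by TMM scaling (median -1.16), 24 lower and 33 higher by library totals (median 0.08), and 13 lower and 55 higher by limma on log2(TPM + 1) (median 0.30). Relative to the median of all genes, the nuclear members lay lower by either count scaling.

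Within this comparison Sdha, Sdhc and Ndufb10 were lower by TMM scaling and by library totals alike. TMM values were -2.11 ± 0.07 for Sdha, -2.25 ± 0.08 for Sdhc and -2.13 ± 0.08 for Ndufb10 (SE), against -0.87, -1.02 and -0.89 by library totals. Ndufa9, Ndufb9, Cyc1, Uqcrc2, Uqcrfs1, Cox6c, Atp5a1 and Atp5g1, also of lowest p in their complexes, had TMM values from -1.65 to -1.45 and remained below 0 by library totals. By limma on log2(TPM + 1), Ndufa9 (-0.041), Cyc1 (-0.078), Cox6c (-0.0041) and Atp5g1 (-0.099) did not pass, with adjusted p of 0.21 to 0.96. Sdhd (-1.24 ± 0.06), Cox5a (-1.16 ± 0.05), Cox8a (-1.31 ± 0.07) and Atp5j (-1.21 ± 0.06) did not pass by library totals. The members that rose by TMM were Cox6b2, Ndufa4l2 and Ndufc2. Ndufa4l2, a hypoxia-inducible paralogue of Ndufa4, was at 2.97, 2.63 and 3.01 TPM in WT, 4.27, 0.790 and 1.04 in KO, 25.4, 37.2 and 24.8 in GFP and 32.5, 35.7 and 32.8 in OE, and changed by 2.33 ± 0.22 (SE), adjusted p = 2.0e-05, in GFP against WT, whereas OE and GFP overlapped (-0.04 ± 0.12 (SE), adjusted p = 0.75). Ndufc2, an accessory subunit of complex I, changed by 0.24 ± 0.07 (SE), adjusted p = 0.0087.

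The effect of the Cebpa virus was set against that of the deletion in a single fit of all 12 libraries, as OE against GFP less KO against WT. Of all 15326 genes tested, 25.9% had a higher and 28.1% a lower difference. Of the 91 nuclear members tested 8 were higher and 62 lower, with a median of -0.54, and of the 13 mitochondrial members 0 were higher and 8 lower, with a median of -0.91, against -0.03 over all genes. This fit has a single dispersion per gene for both experiments, although the replicate spread differed between them: the biological coefficient of variation was 20.4% in the KO against WT fit, 4.04% in the OE against GFP fit and 13.9% here. The single dispersion may therefore understate the spread of the KO and WT libraries.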

How the data were processed

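RNA-Seq of 12 libraries of primary mouse hepatocytes was analysed from the deposited gene tables. Per the labels, poly(A) RNA was made into stranded mRNA libraries, and the submitters' processing notes name Trimmomatic 0.36, STAR 2.5.1, Picard 1.84, RSEM 1.2.22, DESeq2 and the build mm10. The role of each and the strand setting are not given in the sources used here. The authors deposited RSEM expected counts (estimated counts, not scaled to depth) and TPM, scaled to effective length and to a fixed total. FPKM was also deposited and was not used. All 55450 identifiers matched GENCODE M21, which gave coordinates and transcripts. Total counts of 20160081 to 23304230 set the precision.

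Expected counts were rounded, genes kept by filterByExpr (minimum count 10, total 15), libraries scaled by TMM and tested in edgeR 4.0.16 (quasi-likelihood F test, R 4.3.3) with p-values adjusted by Benjamini-Hochberg across every tested gene. Each comparison used its own 6 libraries, and calls required an adjusted p under 0.05. Intervals are 95%. Members, gene lists, motifs and the rule for named genes (all mitochondrial members, up to 3 nuclear members of lowest p per complex, the most abundant per complex, and paralogue sets) were chosen with earlier results of these data known. Copies were found with blastn 2.17.0 (at least 95% identity over 80% of the shorter transcript), and those of at least 99% identity were added to the member, an alternative chosen after seeing the data. Other alternatives were DESeq2 1.42.0, limma 3.58.1 on log2(TPM + 1) and log2(TPM + 0.1), other scalings and filters, a lowess length trend (span 0.3), a block for replicate number and fits without 1 library at a time. The pipeline was tested on simulated data with 200 changed genes. Counts of reads are not independent molecules.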

Additional observations from a re-analysis of the deposited data

Results flagged for a closer look

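Each value in the following sentences is the log2 effect of the Cebpa virus (OE against GFP) less the log2 effect of the deletion (KO against WT), from edgeR's quasi-likelihood test on all 12 libraries with Benjamini-Hochberg adjustment. This test of the difference passed for 8 nuclear members above 0, and for 62 nuclear and 8 mitochondrial members below 0. The 10 described here were chosen from these after their values were seen, among genes described in OE against GFP. Of the differences above 0, 3 were 0.876 ± 0.10 (SE, adjusted p = 1.1e-05) for Uqcrfs1, 0.850 ± 0.09 (SE, adjusted p = 9.3e-06) for Uqcrb and 0.421 ± 0.09 (SE, adjusted p = 0.0022) for Atp5g3. In these the OE effect was 1.02, 0.84 and 0.41, and the KO effect, which did not pass its own test, was 0.17, 0.02 and 0.02.

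Of the nuclear differences below 0, 4 were -1.242 ± 0.09 (SE, adjusted p = 5.6e-07) for Ndufa13, -1.145 ± 0.09 (SE, adjusted p = 1.1e-06) for Cox6a1, -0.973 ± 0.08 (SE, adjusted p = 1.4e-06) for Atp5d and -0.955 ± 0.12 (SE, adjusted p = 2.8e-05) for Sdhb. Of the mitochondrial differences, 3 were -1.247 ± 0.15 (SE, adjusted p = 3.0e-05) for mt-Co1, -1.184 ± 0.14 (SE, adjusted p = 2.4e-05) for mt-Nd5 and -0.964 ± 0.13 (SE, adjusted p = 6.4e-05) for mt-Cytb. All 10 differences kept their direction and their side of the threshold under the alternatives run for them, 40 values in all. The 2 experiments differ in virus, culture and, as far as the labels tell, genotype as well as in Cebpa, and these cannot be told apart in this difference.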

How the results depend on the processing

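Nuclear and mitochondrial counts of calls in KO against WT stayed at 0 under every alternative run except a fit of all 12 libraries, which called 1 nuclear member lower (Ndufb3, -0.54). In OE against GFP, limma with either pseudocount called 21 nuclear members higher, where edgeR called 8. In GFP against WT the nuclear members called higher were 33 by library totals and 55 by limma with either pseudocount, and those called lower were 24 and 13. Leaving out 1 library at a time gave 0 calls in KO against WT in all fits. In OE against GFP it gave 72 to 77 nuclear and 12 to 13 mitochondrial members lower and 8 nuclear members higher in each fit. In GFP against WT it gave 83 to 84 nuclear members lower, 3 to 4 higher and 13 mitochondrial members lower. Fits that left 2 libraries in a group pooled the spread over all 5.

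Single genes turned sign as follows in OE against GFP. By library totals, Cox7a2 was at 0.053, Cox7a2l at 0.023, Ndufa4l2 at 0.096 and Atp5g1 at 0.026. By limma on log2(TPM + 1) and log2(TPM + 0.1), mt-Nd3 was at 0.10 and 0.10, Cox7a2 at 0.25 and 0.25, Cox7a2l at 0.20 and 0.20, Ndufa4l2 at 0.23 and 0.23, and Atp5g1 at 0.17 and 0.17. With the length trend removed, mt-Nd3 was at 0.36, Cox7a2 at 0.42, Cox7a2l at 0.20, Ndufa4 at 0.11, Atp5g1 at 0.40 and Atp5g2 at 0.074. Ndufa4l2 ranged from -0.15 to 0.15 when 1 library was left out. In KO against WT, adding the copies gave 0.15 for mt-Co2, 0.10 for mt-Co3 and 0.15 for mt-Atp6. In GFP against WT, library totals gave 0.081 for Cox5a and 0.026 for Atp5j, and limma with a pseudocount of 1 and 0.1 gave 0.20 and 0.20 for Sdhd, 0.30 and 0.30 for Cox5a, 0.13 and 0.13 for Cox8a and 0.25 and 0.25 for Atp5j. Each scaling shifts all genes together; the cause of the other changes was not tested.

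Same-numbered replicates did not deviate together (correlations from -0.28 to 0.07), so the numbers were not taken as pairs. With the replicate block, OE against GFP gave 75 nuclear and 13 mitochondrial members lower and 8 nuclear members higher, mt-Co3 passing at -0.42, KO against WT gave 0 calls among members, and GFP against WT gave 84 nuclear members lower and 3 higher. The ratio of mitochondrial to nuclear sums differed 4.72-fold between WT and GFP and 1.22-fold between GFP and OE by TPM. It differed 3.95-fold and 1.4-fold by counts, 3.91-fold and 1.37-fold with copies added, and 4.5-fold and 1.33-fold by TPM without mt-Atp8. Counts limit Ndufs6b, Cox6b2, Cox7a1 and Cox6c2, which were too low to test in 1 or more comparisons.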
